A study of Mus musculus with 8 samples.

Results

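The 8 genes described here encode transcription factors of the macrophage and microglia lineage: *Spi1*, *Irf8*, *Runx1*, *Maf*, *Cebpa*, *Cebpb*, *Mef2a* and *Mef2c*. They were taken by name from the count files and not by a threshold on a measured value, although earlier results of these data were known. All 8 were found among the 20308 genes in the files and passed the filter on low counts, which kept 13407 genes. RNA came from cells pulled from the right brain hemisphere with CD11b-conjugated magnetic beads, after removal of myelin with Percoll, from mice aged p14 or p15. The 4 control mice and the 4 mice of the CSF1 over-expression strain (CSF1 OE) were F1 crosses of C57Bl/6 and CD1, and each mouse gave 1 library. CSF1 OE mice carry a TRE/tTA transgene through which some GFAP+ cells make secreted CSF1, so the cells measured here are not those at which the transgene is aimed. Which transgenes, if any, the control mice carry is not given in the sources used here.

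PU.1, the product of *Spi1*, is an ETS factor that binds at the enhancers of nearly every myeloid gene, and without it macrophages and microglia do not form. IRF8 binds DNA weakly on its own and is recruited beside PU.1 at composite ETS-IRF sites. RUNX1 acts early in blood development, C/EBP factors and MAF factors shape the later steps of the myeloid programme, and MEF2 factors are bound at many enhancers of resting microglia. CSF1 acts through CSF1R, whose gene is itself a target of PU.1, RUNX1 and C/EBP factors. The comparison thus asks whether, in these young mice, exposure to more CSF1 goes with a different level of the factors that define the lineage.

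Total expected counts ran from 12053280 to 15475488 per library. Levels are given as CPM, each count as a share of its library total on the usual CPM scale after TMM factors, and all fold changes are CSF1 OE against control. To be called, a gene needed a Benjamini-Hochberg adjusted p under 0.05 over all genes tested with edgeR, and also a fold change under 0.7 or over 1.43. Of the cell type lists, the microglia markers were the most abundant in every library: the 12 genes summed to between 22972 and 42049 CPM, against 0.47 to 2.38 CPM for 6 T and NK cell genes and 7.93 to 19.7 CPM for 4 B cell genes. Markers of other cells were detected too, and no listed marker was at 0 in all 8 libraries, while 4 of the T and NK cell genes and 2 of the B cell genes were at 0 in some. Summed oligodendrocyte markers ran from 1609 to 6165 CPM, endothelial markers from 389 to 1445 CPM, border macrophage markers from 1277 to 2509 CPM, astrocyte markers from 316 to 716 CPM, monocyte markers from 254 to 896 CPM, neuron markers from 69.9 to 523 CPM, precursor cells of oligodendrocytes from 80.3 to 305 CPM and neutrophil markers from 16.3 to 234 CPM. Control mouse 1934 had the lowest microglia sum and CSF1 OE mouse 2019 the highest. They lay at opposite ends of the first principal component, which held 49.8% of the variance. *Csf1* itself ranged from 139 to 364 CPM in the controls and from 167 to 400.1 CPM in CSF1 OE libraries (log2 fold change 0.19, standard error 0.33, adjusted p = 0.796 from edgeR), which does not check the genotype, since the cells that carry the active transgene were not selected. In such bulk RNA, fewer cells of a type and less RNA per cell cannot be told apart. Nothing says whether mice came from separate litters, so p-values measure the spread between these mice.

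None of the 8 factors was called, beside 0.440% of all genes tested. *Mef2a* was the only factor with an unadjusted p under 0.05, beside 16.5% of all genes tested, and the genotypes overlapped in all 8, where they did not overlap in 10.3% of all genes (6.84% with CSF1 OE higher and 3.45% with CSF1 OE lower). The median log2 fold change of the 8 was 0.04, beside -0.03 for all genes tested. For 6 of the 8 the 95% interval of the fold change lay wholly between 0.7 and 1.43, as it did for 44.4% of all genes. The intervals of *Spi1* and *Maf* extended past these limits, upward for *Spi1* and downward for *Maf*.

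**Figure D1:**
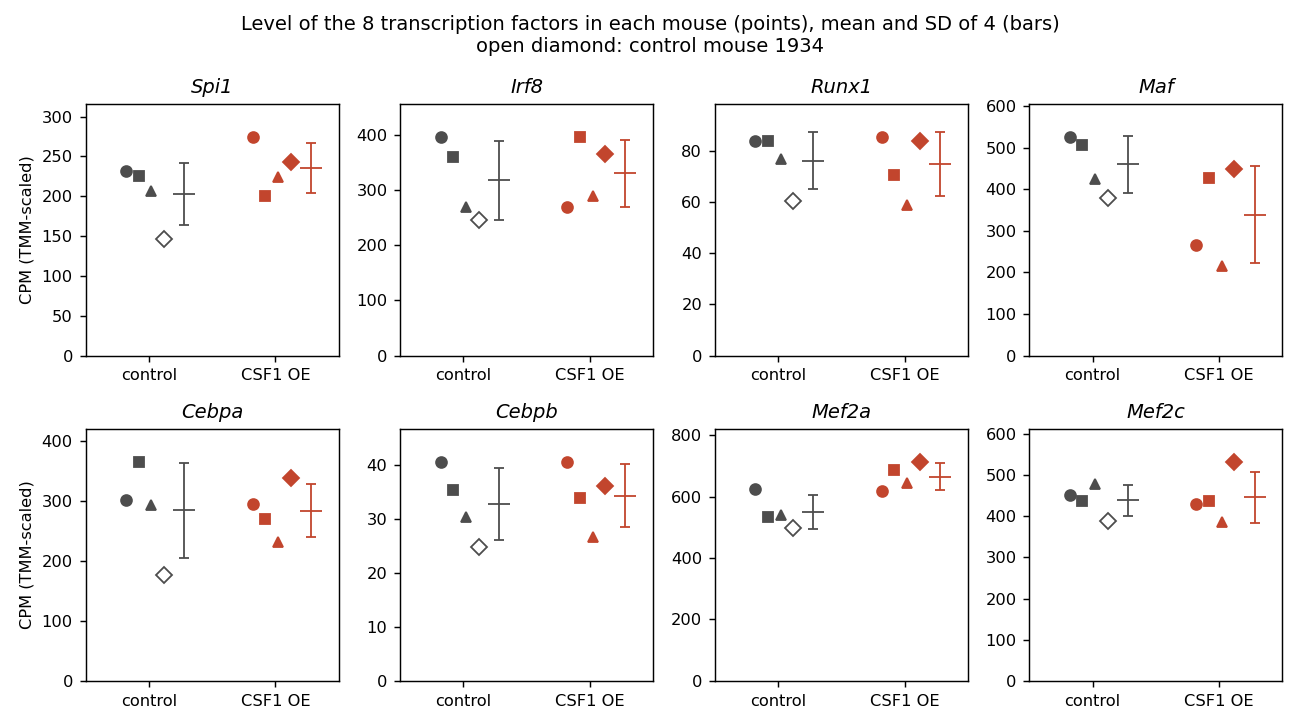
CPM of each factor (vertical axis, from 0) in the 4 control (grey) and 4 CSF1 OE (red) mice; circle, square, triangle and diamond are in ascending order of animal number within a genotype, and bars are mean and SD of 4 mice. The genotypes overlap in all 8 panels, and control mouse 1934, the open diamond, is the lowest control in each.

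*Spi1* (ENSMUSG00000002111.8) lies on chromosome 2 of GRCm38 from 91082390 to 91115756. It had 232, 225, 207 and 146 CPM in control mice 1827, 1872, 1874 and 1934, and 275, 200.1, 224 and 243 CPM in CSF1 OE mice 1931, 1932, 1936 and 2019. In CSF1 OE mice 2 values lay above every control value and none below. The means were 202 ± 39.1 and 236 ± 31.7 CPM (SD, n = 4 each), a log2 fold change of 0.22 with a standard error of 0.16 (adjusted p = 0.518 from edgeR). The interval of the fold ran from 0.91 to 1.49, which reaches past the fold needed for a call. The log2 fold change was 0.10 without control mouse 1934 and 0.14 without CSF1 OE mouse 1931.

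*Irf8* (ENSMUSG00000041515.10), on chromosome 8 from 120736358 to 120756694, encodes the IRF partner of PU.1 that microglia need for their normal number and shape. It had 397, 361, 269 and 247 CPM in control mice against 269, 398, 289.7 and 367 CPM in CSF1 OE mice, in the order of mice given for *Spi1*. Both genotypes covered nearly the same range. The means were 319 ± 72.0 and 331 ± 61.5 CPM, with a fitted log2 fold change of 0.05 and a standard error of 0.19 (adjusted p = 0.900 from edgeR, interval of the fold from 0.78 to 1.39).

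*Irf8* is also a target of interferon gamma, which acts through promoter sites of the GAS type, TTCNNNGAA. The 250 bases before its start held 2 such matches, beginning 171 and 153 bases upstream. *Irf1*, a relative induced by the same pathway, held 1 match, 90 bases upstream. Both windows, chosen after the matches were seen, are shown because the 2 genes share this motif and belong to the same family, while *Irf8* was near its control level and *Irf1* is among the IRF genes with an unadjusted p under 0.05. They were read from RefSeq promoters of GRCm38.p6, on the plus strand, at chr8:120736108-120736357 and chr11:53769764-53770013, and capitals mark the matches.
Irf8: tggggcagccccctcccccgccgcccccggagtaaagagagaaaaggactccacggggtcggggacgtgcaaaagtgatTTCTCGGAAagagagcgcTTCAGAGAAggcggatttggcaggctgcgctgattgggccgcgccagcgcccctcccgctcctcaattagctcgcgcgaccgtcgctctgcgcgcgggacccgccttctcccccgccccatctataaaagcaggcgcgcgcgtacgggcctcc
Irf1: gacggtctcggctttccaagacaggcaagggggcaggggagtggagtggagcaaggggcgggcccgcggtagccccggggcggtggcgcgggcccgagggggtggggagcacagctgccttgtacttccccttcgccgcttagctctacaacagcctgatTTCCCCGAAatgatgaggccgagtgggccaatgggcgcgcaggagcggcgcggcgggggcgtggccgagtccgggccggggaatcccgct
The motif reads the same on both strands and occurs in 7.02% of the 32851 promoter windows of this length, so a match is a description of the letters and not of binding. Windows of *Irf7* and *Irf9*, which were searched too, held no match to it. *Irf1* had 115, 105, 93.4 and 93.7 CPM in control mice against 108, 133, 154 and 124 CPM in CSF1 OE mice. Its genotypes overlapped, and its log2 fold change was 0.35 with a standard error of 0.12 (adjusted p = 0.205 from edgeR).

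*Cebpa* (ENSMUSG00000034957.10), on chromosome 7 from 35119293 to 35121928, encodes C/EBP alpha, which commits progenitors to the myeloid lineage and restrains their division. It had 302, 365, 293 and 176 CPM in control mice against 294, 269.8, 232 and 338 CPM in CSF1 OE mice. Every CSF1 OE value lay within the control range. The means were 284 ± 78.7 and 283 ± 44.1 CPM and the log2 fold change -0.003, with a standard error of 0.21 (adjusted p = 0.994 from edgeR, interval of the fold from 0.72 to 1.38). The 8 cell cycle genes measured beside it summed to between 431 and 827 CPM in the controls and between 923 and 1134 CPM in CSF1 OE mice. Of these 8 genes, 7 lay above every control value in all CSF1 OE mice, beside 6.84% of all genes, and 1, *Pcna*, was called higher.

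*Cebpb* (ENSMUSG00000056501.3), on chromosome 2 from 167688915 to 167690418, encodes the C/EBP factor that inflammatory signals induce in macrophages. It had 40.5, 35.3, 30.3 and 24.8 CPM in control mice against 40.5, 33.9, 26.6 and 36.0 CPM in CSF1 OE mice. All CSF1 OE values again fell within the control range. The means were 32.8 ± 6.72 and 34.2 ± 5.80 CPM, with a fitted log2 fold change of 0.06 and a standard error of 0.17 (adjusted p = 0.872 from edgeR, interval of the fold from 0.79 to 1.37). It was the factor with the fewest reads, from 390 to 603 per library, where counting alone gives an error of 5.06% at the lowest count. *Cebpb* shares 312 bases of exon with *Tmem189* on the opposite strand, and the library kit does not record strand, so reads there could not be told apart by strand. *Tmem189* ran from 71.3 to 75.9 CPM in the controls and from 65.1 to 86.6 CPM in CSF1 OE mice. The exons of *Runx1*, *Maf* and *Cebpa* share 106, 440 and 51 bases with antisense genes, which were not analysed here.

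Within a library the ratio of *Cebpa* to *Cebpb* CPM does not depend on the scaling. It was 8.63 ± 1.60 in control and 8.33 ± 0.92 in CSF1 OE mice (SD, n = 4 each), with overlapping ranges.

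*Runx1* (ENSMUSG00000022952.17), on chromosome 16 from 92601466 to 92826149, encodes the DNA-binding subunit of the core binding factor and marks the progenitors from which microglia derive. It had 83.9, 83.8, 77.0 and 60.4 CPM in control mice against 85.7, 70.7, 58.9 and 83.9 CPM in CSF1 OE mice. In CSF1 OE mice 1 value lay above every control value and 1 below. The means were 76.3 ± 11.1 and 74.8 ± 12.6 CPM, with a fitted log2 fold change of -0.03 and a standard error of 0.15 (adjusted p = 0.936 from edgeR, interval of the fold from 0.78 to 1.23).

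*Maf* (ENSMUSG00000055435.6), on chromosome 8 from 115682942 to 115707794, encodes c-MAF, which in macrophages promotes *Il10* and restrains self-renewal. It had 527, 507, 425 and 379.6 CPM in control mice against 265, 426, 215 and 449 CPM in CSF1 OE mice. CSF1 OE mice 1931 and 1936 lay below every control mouse, while mice 1932 and 2019 lay within the control range. The means were 459.7 ± 69.3 and 339 ± 116 CPM, with a fitted log2 fold change of -0.44 and a standard error of 0.24 (adjusted p = 0.393 from edgeR). The interval of the fold ran from 0.51 to 1.07. It was the largest difference among the 8, and its spread within a genotype, an SD of 0.40 on the log2 scale, was also the largest, at the 73.4th percentile of all genes tested. The log2 fold change was -0.27 without CSF1 OE mouse 1936, -0.34 without CSF1 OE mouse 1931 and -0.61 without CSF1 OE mouse 2019.

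The same CSF1 OE libraries were low for *Sall1*, which was chosen after its values were seen. *Sall1*, a factor that among brain myeloid cells marks microglia, had 969, 1077, 952 and 712 CPM in control mice against 647, 870.4, 683 and 989 CPM in CSF1 OE mice (log2 fold change -0.22, standard error 0.18, adjusted p = 0.567 from edgeR). Mice 1931 and 1936 were the lowest of the 8 for both genes. Border macrophages also express *Maf*, and their 8 markers summed to between 1584 and 2509 CPM in the controls and between 1277 and 1907 CPM in CSF1 OE mice. Mouse 1936 had the lowest of these sums, mouse 1932 was at 1504 CPM, mouse 1931 at 1732 CPM and mouse 2019 at 1907 CPM. Control mouse 1827, the highest of the 8 for *Maf*, had the lowest control sum, 1584 CPM. All 8 border macrophage markers had a negative log2 fold change, 5 of them with an unadjusted p under 0.05, beside 6.44% of all genes in this direction, and none was called. Their part in the values of *Maf* was not tested.

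**Figure D2:**
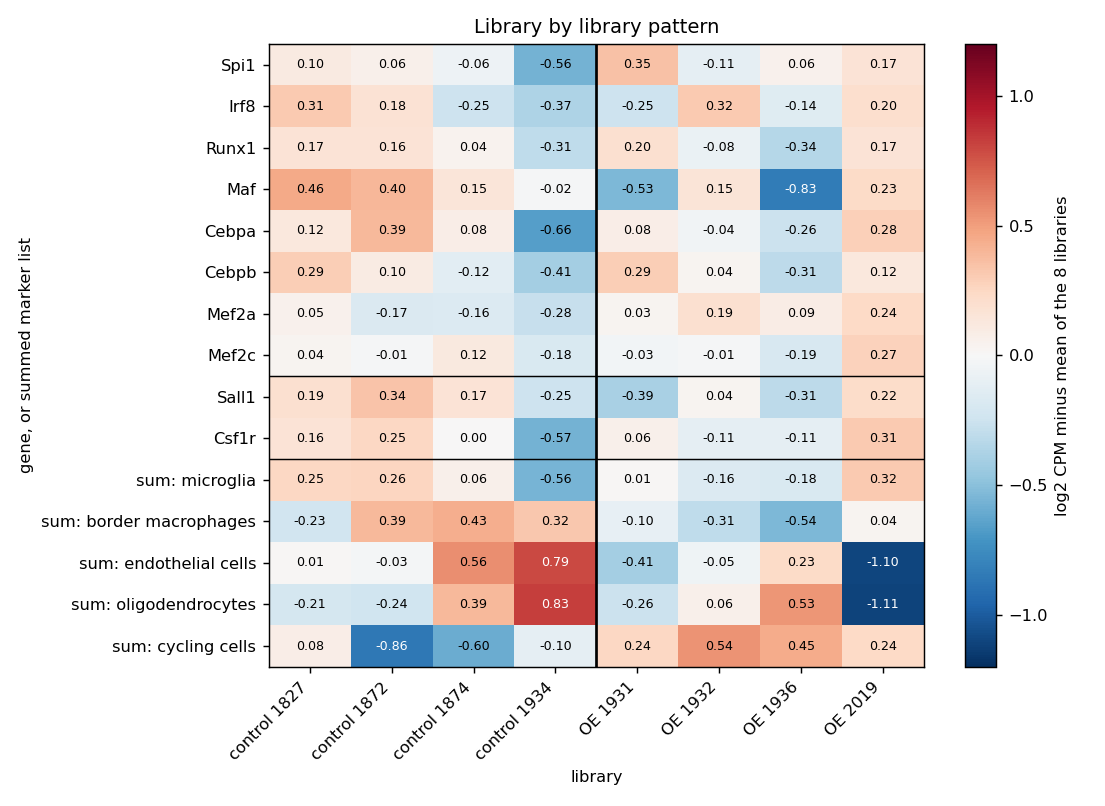
Log2 CPM minus the mean of the 8 libraries (colour and printed number), for the 8 factors, for *Sall1* and *Csf1r*, and for 5 summed marker lists, with libraries in columns and a line between the genotypes. Control 1934 is at or below its row mean for all 8 factors, and OE 1931 and OE 1936 are low in the rows of *Maf* (-0.53 and -0.83) and *Sall1* (-0.39 and -0.31).

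*Mef2a* (ENSMUSG00000030557.17), on the minus strand of chromosome 7 from 67231163 to 67372858, encodes a MADS-box factor that is expressed widely and is abundant in microglia. It had 626, 535, 539 and 498 CPM in control mice against 617, 687, 643 and 713 CPM in CSF1 OE mice. In CSF1 OE, 3 mice lay above every control mouse, and the fourth, mouse 1931, lay just under control mouse 1827. The means were 549 ± 54.1 and 665 ± 43.2 CPM, with a fitted log2 fold change of 0.27 and a standard error of 0.10, an unadjusted p of 0.0250 and an adjusted p of 0.235 from edgeR. The interval of the fold ran from 1.03 to 1.42. With DESeq2 the adjusted p was 0.0479, where 6.13% of all genes had an adjusted p under 0.05, and its fold was below the threshold for a call, which 3.31% of all genes passed with DESeq2. On simulated counts, drawn with the spread that edgeR had estimated for each gene, 21% of the DESeq2 calls were false, against 5.79% with edgeR. Adjusted p-values of *Mef2a* spanned 0.0479 to 0.443 over 16 alternatives. The log2 fold change was positive in all 16, between 0.20 and 0.36. *Mef2a* was also the steadiest of the 8 within a genotype, with an SD of 0.12 on the log2 scale, at the 16.6th percentile of all genes tested. It shares 302 bases of exon with *Lysmd4* on the opposite strand, which had at most 139 reads in a library against at least 7127 for *Mef2a*.

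The window before the start of *Mef2a*, also chosen after the matches were seen, is shown because, of the 8 motifs searched, it held 2 matches to GAGGAA, the core of the site that PU.1 binds. It lies on the minus strand at chr7:67372859-67373108 in GRCm38.p6, from RefSeq, and capitals mark the matches, which begin 114 and 103 bases upstream.
Mef2a: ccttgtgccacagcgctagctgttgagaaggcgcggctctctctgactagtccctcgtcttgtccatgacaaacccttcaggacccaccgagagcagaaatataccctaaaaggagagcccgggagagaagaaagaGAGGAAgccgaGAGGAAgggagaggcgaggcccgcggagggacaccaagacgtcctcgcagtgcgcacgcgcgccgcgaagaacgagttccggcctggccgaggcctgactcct
On either strand GAGGAA occurs in 23.3% of all windows and in 4 of the 10 windows that the table holds for 6 of the factors, which belong to *Mef2a*, *Mef2c* and *Runx1*. The other motifs were GAAANNGAA for the interferon-stimulated element, GGAAGT for ETS factors, TGTGGT for RUNX, TTGCNNAA for C/EBP, TAAAAATA for MEF2 and TATAAA for the TATA box, and they occur in 7.13%, 19.7%, 14%, 9.56%, 2.45% and 12.4% of all windows. Both strands were searched, and matches to GAGGAA and GGAAGT, or to GAAANNGAA and TTCNNNGAA, can overlap. Of the 10 windows of the factors 0 held the motifs of RUNX, C/EBP, MEF2 or the interferon-stimulated element, 1 window held GGAAGT and 4 held TATAAA, while the GAS type occurred in 1 window of *Irf8* and 1 of *Mef2c*.

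*Mef2c* (ENSMUSG00000005583.16), on chromosome 13 from 83504034 to 83667080, encodes the MEF2 factor that restrains the response of microglia to interferon and is also expressed in neurons and endothelial cells. It had 451, 437, 479 and 388 CPM in control mice against 430.2, 437, 385 and 532 CPM in CSF1 OE mice. Mouse 2019 lay above every control, mouse 1936 just below, and the others between. The means were 439 ± 38.1 and 446 ± 61.7 CPM, with a fitted log2 fold change of 0.02 and a standard error of 0.12 (adjusted p = 0.931 from edgeR, interval of the fold from 0.84 to 1.23). The summed neuron markers, from 136 to 523 CPM in the controls and from 69.9 to 354 CPM in CSF1 OE mice, and the endothelial markers, from 821 to 1445 and from 389 to 978 CPM, were lowest in mouse 2019, where *Mef2c* was highest, and their part in its values was not tested. Within a library the ratio of *Mef2a* to *Mef2c* CPM was 1.39, 1.22, 1.13 and 1.28 in control and 1.43, 1.57, 1.67 and 1.34 in CSF1 OE mice. Only the value of mouse 2019 overlapped with the control range.

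**Figure D3:**
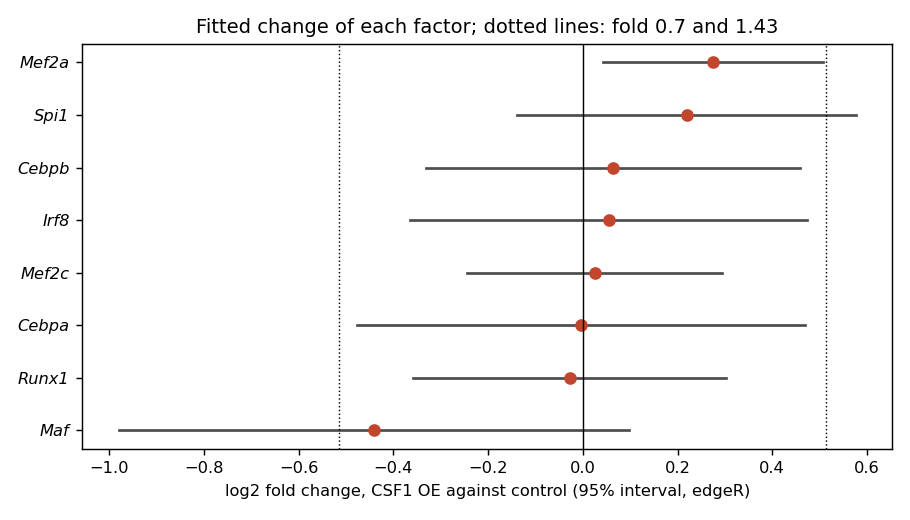
Log2 fold change of each factor (horizontal axis, CSF1 OE against control, point) with its 95% interval from edgeR (line), ordered by size; dotted lines mark the folds 0.7 and 1.43. The intervals of 6 factors lie between the dotted lines, that of *Spi1* passes the upper and that of *Maf* the lower line, and that of *Mef2a* is the only interval that does not hold 0.

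As levels, *Mef2a*, *Mef2c*, *Maf*, *Irf8*, *Cebpa* and *Spi1* lay between the 93.7th and the 98.6th percentile of CPM over all genes tested, *Runx1* at the 77.9th and *Cebpb* at the 57.8th. Per kilobase of annotated exon, which is needed to compare genes with each other, the order in control mice was *Cebpa* (108 ± 29.8 CPM per kb), *Spi1* (75.1 ± 14.5), *Maf* (55.8 ± 8.41), *Irf8* (45.2 ± 10.2), *Mef2a* (37.4 ± 3.68), *Mef2c* (27.9 ± 2.42), *Cebpb* (21.8 ± 4.47) and *Runx1* (6.34 ± 0.92), as SD over 4 mice. Among neighbours in this order, the control ranges overlapped except between *Mef2a* and *Mef2c* and between *Cebpb* and *Runx1*. Within a library *Cebpa* lay above *Spi1*, and *Spi1* above *Maf*, in 8 of 8 mice. In CSF1 OE mice the middle of the order was *Irf8* (46.9 ± 8.72 CPM per kb), *Mef2a* (45.3 ± 2.94) and *Maf* (41.1 ± 14.1), which did not differ beyond their spread. The lengths cover all annotated exons of a gene, from 1.5 kb for *Cebpb* to 15.7 kb for *Mef2c*, so the order depends on which transcripts were present.

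Control mouse 1934 had the lowest control value in 8 of the 8 factors, while it was lowest in 37.6% of all genes tested. Control mouse 1827 had the highest control value in 6, while it was highest in 28.7% of all genes tested. In the same libraries the microglia markers summed to 22972 CPM in mouse 1934 and to between 35239 and 40514 CPM in the other control mice, and *Csf1r* had 6563 CPM against 9774 to 11623 CPM. Oligodendrocyte markers were at 6165 CPM in mouse 1934 and between 2947 and 4536 CPM in the others. Per 1000 CPM of the microglia markers, *Spi1* was at 5.77, 5.56, 5.86 and 6.36 in control and at 8.10, 6.63, 7.52 and 5.77 in CSF1 OE mice, so that 3 CSF1 OE mice lay above every control. *Maf* was at 13.1, 12.5, 12.1 and 16.5 in control and at 7.79, 14.1, 7.21 and 10.7 in CSF1 OE mice. CSF1 OE mice 1931, 1936 and 2019 thus lay below every control for *Maf*. On this scale *Cebpa* ran from 7.52 to 9 in control and from 7.79 to 8.95 in CSF1 OE mice, and *Mef2a* from 13.2 to 21.7 and from 16.9 to 22.8. The genotypes overlapped in all 8 factors. The markers include *Csf1r*, *Aif1* and *Itgam*, which are also listed below as targets of the 8 factors, so their sum is not independent of those targets. With the summed markers as a term in the fit, a choice made after seeing the data, none of the 8 factors was called, where 3.20% of all genes were called, or 5.62% with no fold threshold. The log2 fold changes were 0.25 for *Spi1* (adjusted p = 0.139 from edgeR, while its alternatives spanned 0.114 to 0.797), 0.28 for *Mef2a* (adjusted p = 0.0730) and -0.44 for *Maf* (adjusted p = 0.205).

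The mice numbered from 1931 to 1936 were 1 control and 3 CSF1 OE mice, and the other 4 were 3 control and 1 CSF1 OE, so that animal number overlaps with genotype. Within the first range the difference in mean log2 CPM was 0.66 for *Spi1*, 0.58 for *Cebpa*, 0.41 for *Cebpb*, 0.38 for *Mef2a*, 0.35 for *Irf8*, 0.23 for *Runx1*, 0.10 for *Mef2c* and -0.39 for *Maf*, all against mouse 1934. Within the other mice it was 0.33 for *Mef2a*, 0.22 for *Mef2c*, 0.13 for *Spi1*, 0.12 for *Irf8*, 0.08 for *Cebpa*, 0.04 for *Runx1* and *Cebpb* and -0.11 for *Maf*, all from mouse 2019. *Maf* was thus lower, and each other factor higher, in both. Each range rests on 1 mouse of 1 genotype, 1934 or 2019, which had the lowest and the highest microglia sum of all libraries. With a term for the range in the fit *Mef2a* had a log2 fold change of 0.36 (adjusted p = 0.0526 from edgeR), *Spi1* one of 0.40 (adjusted p = 0.114) and *Cebpa* one of 0.33 (adjusted p = 0.163), where 9.50% of all genes were called, or 11.9% with no fold threshold.

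Among the relatives of the 8 factors, 42 genes of the ETS, IRF, RUNX, MAF, C/EBP and MEF2 families were listed and 36 tested. None was called, 6 had an unadjusted p under 0.05 and were higher, beside 10.1% of all genes in that direction, and 3 were lower, beside 6.44%. *Irf7*, which amplifies the type I interferon response, had 8.60, 3.73, 5.82 and 4.61 CPM in control mice against 15.6, 22.5, 37.4 and 13.1 CPM in CSF1 OE mice. Its fitted log2 fold change of 1.96 had a standard error of 0.38 (adjusted p = 0.0558 from edgeR). *Irf9*, the DNA-binding part of the factor that type I interferon activates, had 45.2 ± 7.20 CPM in control mice against 72.3 ± 11.2 CPM in CSF1 OE mice (log2 fold change 0.68, standard error 0.15, adjusted p = 0.0724 from edgeR). In both genes every CSF1 OE mouse lay above every control mouse, as in 6.84% of all genes. *Irf4* (log2 fold change -0.72, adjusted p = 0.279 from edgeR) had an unadjusted p under 0.05 in the other direction with overlapping genotypes. *Irf7* was called in 7 of the 17 alternatives, with DESeq2, with limma on the values of the authors, with either term in the fit, with both end libraries left out, and without control mouse 1827 or CSF1 OE mouse 2019. These fits called between 72 and 1274 of all genes.

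In the ETS family 14 of 15 genes were tested, with log2 fold changes from -0.57 for *Erg*, a factor of endothelial cells, to 0.28 for *Elf4*, and 1, *Elk4*, had an unadjusted p under 0.05 (0.26, adjusted p = 0.289 from edgeR). *Spib*, the nearest relative of *Spi1*, had at most 6 reads in a library and was not tested. Of the RUNX genes and partners, *Cbfb*, which binds RUNX proteins and steadies them on DNA, had 114 ± 16.2 CPM in control mice against 139 ± 6.49 CPM in CSF1 OE mice (log2 fold change 0.28, standard error 0.10, adjusted p = 0.226 from edgeR). *Runx3* had a log2 fold change of 0.48, at 12 to 21 reads per library, and *Runx1t1* of -1.11 (adjusted p = 0.199 from edgeR), at 4 to 40 reads. In the MAF family 4 of 6 genes were tested. *Maff*, a small MAF protein without an activation domain, had 52.5, 38.1, 36.9 and 50.3 CPM in control mice against 75.7, 64.3, 76.3 and 61.3 CPM in CSF1 OE mice. Every CSF1 OE value was above every control value (log2 fold change 0.64, standard error 0.14, adjusted p = 0.0752 from edgeR). *Mafg* was at -0.10, and *Mafa* and *Nrl* had at most 1 read in a library. The C/EBP genes ran from -0.20 for *Ddit3*, an inhibitor of C/EBP factors induced by stress, to 0.23 for *Cebpz*. *Cebpd* was not analysed here. *Mef2d* was at -0.14 (adjusted p = 0.586 from edgeR), and *Mef2b* had at most 5 reads.

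**Figure D4:**
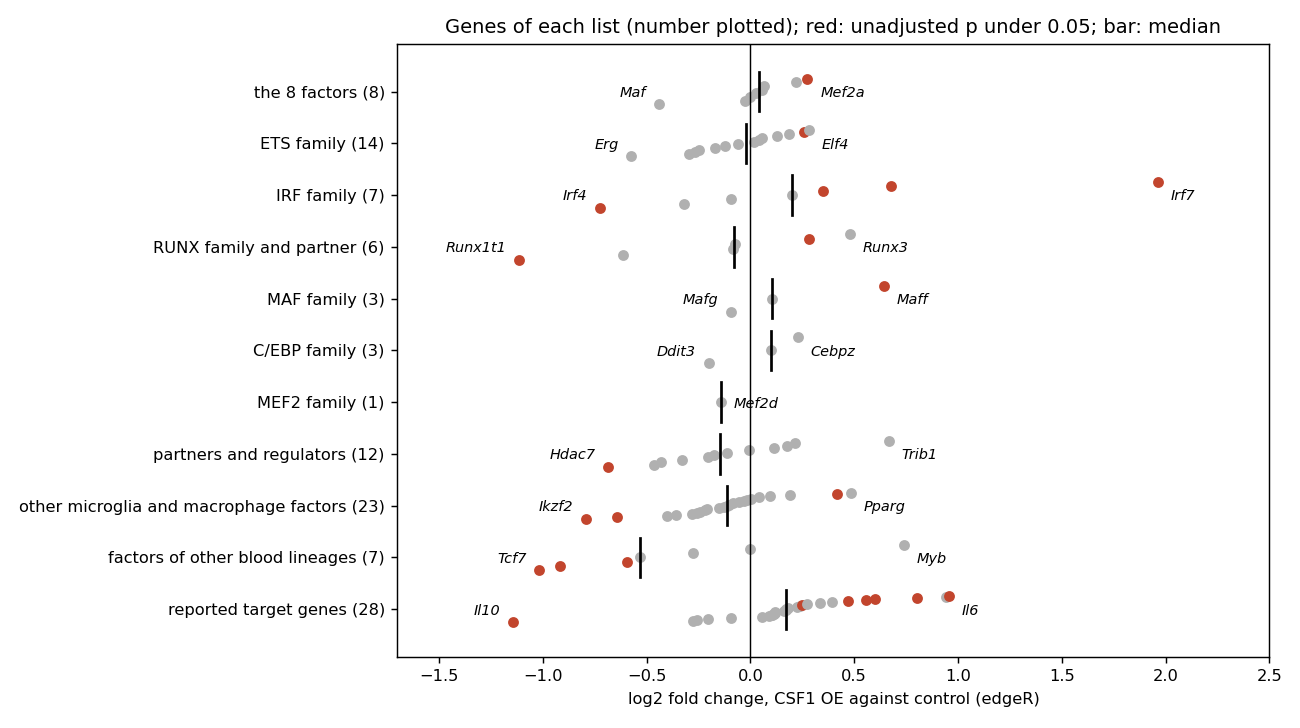
Log2 fold change (horizontal axis, CSF1 OE against control, edgeR) of genes (points) in the 8 factors and 10 related lists, with the number plotted in brackets, genes not reported here left out, red for an unadjusted p under 0.05, a bar at the median of the plotted genes, and the gene at either end named. The 8 factors lie between -0.44 (*Maf*) and 0.27 (*Mef2a*), while the IRF genes plotted run from -0.72 (*Irf4*) to 1.96 (*Irf7*).

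Of 13 partners and regulators of the 8 factors 12 were tested and none was called. The class IIa histone deacetylases hold MEF2 factors in a repressed state, and of these *Hdac7* had an unadjusted p under 0.05, with 23.2 ± 6.54 CPM in control mice against 14.4 ± 5.30 CPM in CSF1 OE mice (log2 fold change -0.69, standard error 0.30, adjusted p = 0.292 from edgeR). *Hdac7* is also an endothelial gene, and the endothelial markers were lower by a median log2 fold change of -0.67 over 9 genes, none of them called. *Trib1*, which targets C/EBP alpha for degradation, had 78.9, 74.0, 95.3 and 44.9 CPM in control mice against 183, 73.2, 88.5 and 121 CPM in CSF1 OE mice (log2 fold change 0.67, standard error 0.31, adjusted p = 0.316 from edgeR), the high value being that of mouse 1931.

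Of 24 other factors of microglia and macrophages 23 were tested and none was called. At an unadjusted p under 0.05, 1 gene was higher and 2 were lower, beside 10.1% and 6.44% of all genes. The median log2 fold change was -0.11. The gene with the largest value was *Pparg*, at 0.48 with 7 to 16 reads per library. *Rel*, an NF-kB subunit, had 97.1 ± 8.16 CPM in control mice against 129.6 ± 17.5 CPM in CSF1 OE mice and did not overlap (log2 fold change 0.42, standard error 0.11, adjusted p = 0.122 from edgeR). *Ikzf2*, a zinc finger factor of the Ikaros family, was lower in all CSF1 OE mice, at 11.4 ± 2.49 and 6.59 ± 1.35 CPM (log2 fold change -0.79, standard error 0.21, adjusted p = 0.123 from edgeR). *Bhlhe40* was at -0.64 (adjusted p = 0.204 from edgeR). Of the 15 factors of other blood lineages 8 were not tested, with at most 12 reads in a library. The 7 tested had a median log2 fold change of -0.53, with *Gata2* (-0.92), *Tal1* (-0.59) and *Tcf7* (-1.02) at an unadjusted p under 0.05 and lower, and *Myb* highest at 0.74, and none was called. The call changed with other fits. With the term for animal numbers *Gata2* (-1.37, adjusted p = 0.0249 from edgeR) and *Tcf7* (-1.73, adjusted p = 0.0254) were called lower, where 9.50% of all genes were called. *Gata2*, *Tal1* and *Tcf7* were called lower with the term for microglia markers, where 3.20% of all genes were called. *Tal1* (-0.98, adjusted p = 0.0294 from edgeR) was called lower without both end libraries, where 166 genes in all were called. Endothelial markers, with a median log2 fold change of -0.67, and monocyte markers, with one of -0.41, were lower beside them, and their part in these values was not tested.

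Of 30 genes reported as targets of the 8 factors 28 were tested. Of these, 23 had a positive and 5 a negative log2 fold change, beside 6002 positive and 7405 negative of all genes tested. The median of the targets was 0.17, beside -0.03 for all genes tested. The summed targets were at 17124 CPM in control mouse 1934, up to 32765 CPM in the other controls, and between 25267 and 35985 CPM in CSF1 OE mice. None was called, and 6 were higher and 1 lower at an unadjusted p under 0.05, beside 10.1% and 6.44% of all genes. *Csf1r*, the receptor for CSF1 and a target of PU.1, had 10928, 11623, 9774 and 6563 CPM in control mice against 10147, 9031, 9057 and 12128 CPM in CSF1 OE mice. Its fitted log2 fold change of 0.05 had a standard error of 0.21 (adjusted p = 0.914 from edgeR). *Aif1*, which encodes IBA1, was higher in every CSF1 OE mouse, with 133 ± 27.1 and 201 ± 19.9 CPM (log2 fold change 0.60, standard error 0.15, adjusted p = 0.0971 from edgeR). *Lyz2*, a lysozyme gene of macrophages that PU.1 and C/EBP factors bind, had 364 ± 92.3 and 635 ± 198 CPM (log2 fold change 0.80, standard error 0.25, adjusted p = 0.169 from edgeR). The receptor genes *Csf2ra* (0.56), *Csf2rb* (0.25) and *Fcgr1* (0.47) also had an unadjusted p under 0.05. *Il6*, a target of C/EBP beta, was the highest at 0.95, from 1.47 ± 0.36 to 2.87 ± 1.09 CPM (adjusted p = 0.226 from edgeR). *Il10*, a target of c-MAF, was the lowest, with 6.05, 7.26, 2.80 and 9.52 CPM in control mice against 2.55, 5.07, 1.43 and 2.57 CPM in CSF1 OE mice (log2 fold change -1.14, standard error 0.45, adjusted p = 0.255 from edgeR). The lowest *Il10* value was in mouse 1936, which was also lowest for *Maf*. The highest was in control mouse 1934, which was the lowest control for *Maf*. A link between *Il10* and *Maf* was not tested. Of the 106 related genes tested, DESeq2 called 5 higher (*Irf7*, *Irf9*, *Maff*, *Aif1* and *Lyz2*) and 1 lower (*Ikzf2*), where 3.31% of all genes were called. The same 5 were called higher with the term for microglia markers, beside 4 lower (*Gata2*, *Hdac7*, *Tal1* and *Tcf7*), where 3.20% of all genes were called. The marker sum holds *Aif1* itself. With the term for animal numbers the same 5 genes and *Fcgr1* made 6 called higher, and 8 were called lower, where 9.50% of all genes were called. Among the 8 were *Bhlhe40*, *Erg*, *Gata2*, *Hdac7*, *Runx1t1* and *Tcf7*.

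The genes whose values over the 8 libraries were most like those of each factor were found by the mean absolute difference of log2 CPM, each gene centred on its own mean. For *Spi1* they were *Lyn* (0.037), *Yif1b* (0.045) and *Hcls1* (0.046), where the median gene differed by 0.26. *Cebpa* was nearest to *Hk3* (0.068), *Lrwd1* (0.074) and *Hmha1* (0.074), and *Runx1* to *Pik3r6* (0.039), *Wasf2* (0.049) and *Prrc2a* (0.050). For *Mef2a* the nearest were *Smchd1* (0.025), *Hipk2* (0.034) and *Dkc1* (0.040), and for *Mef2c* *Npepps* (0.034), *Xiap* (0.039) and *Itsn2* (0.041). *Cebpb* was nearest to *Basp1* (0.049), *Rnpep* (0.049) and *Alg9* (0.060). *Irf8* and *Maf* had no gene as near: the first were *Xk* (0.083), *Mthfs* (0.087) and *Tmem138* (0.091) for *Irf8*, and *Zfp87* (0.113), *Cbx8* (0.117) and *Zfp36l2* (0.117) for *Maf*. No 2 of the 8 factors were among each other's 3 nearest genes.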

How the data were processed

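RNA-seq of CD11b-enriched brain cells from 4 control and 4 CSF1 OE mice was used, 1 library per mouse, with 0 sample columns left unmapped. The authors mapped reads with Bowtie 1.0.0 and estimated expected counts per gene with RSEM 1.2.7 (mm10, per the labels) before they were deposited, with no normalization; the annotation and strand setting are not given in the sources used here. The deposited normalized signal is the same expected counts divided by the authors with 1 size factor per mouse, and was used in 1 alternative.

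Rounded expected counts were fitted with edgeR 4.0.16 under R 4.3.3 (TMM, filterByExpr, glmQLFit, glmQLFTest), without covariates. Log2 CPM used a prior count of 2, and standard errors were derived from the F statistic. EBSeq, which the study used, was not run. As alternatives, DESeq2 1.42.0 and upper-quartile scaling were used, the filter was dropped to any count or raised to 10 counts per library, limma 3.58.1 was run on log2(value + 1) of the deposited normalized signal, animal number range was added as a covariate, the fold threshold was dropped, and each mouse was left out in turn. After seeing the data, 2 were added: a term for the summed microglia markers, and the removal of control 1934 and CSF1 OE 2019 together. The scripts were tested on simulated counts for the same comparison, with a true fold of 2 given to 200 genes. The counts were drawn once, with the spread that edgeR had estimated for each gene. Apart from library size and these changes, all libraries had the same mean levels, so the differences along the first principal component were not simulated. Of these edgeR recovered 57%, and 5.79% of its calls were false. DESeq2 recovered 73.5%, and 21% of its calls were false. A gene not called with edgeR can therefore still differ, and calls made with DESeq2 alone were less certain on these counts. The share of false calls in the real data was not measured.

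Members, lists, markers and tests were chosen with earlier results of these data known. Named were the 8 factors, from each related list the called genes and those with the largest and smallest log2 fold change, *Csf1*, *Csf1r* and the 3 most alike genes per factor; genes with an unadjusted p under 0.05, *Sall1*, *Pcna*, *Tmem189* and *Lysmd4* were chosen after seeing values. Some genes that this rule would name are not reported here. Gene identifiers, positions and exon lengths come from GENCODE M21 (GRCm38), and promoter windows from RefSeq (GRCm38.p6), which held 10 windows for 6 of the 8 factors; the motif letters were settled after a first search with longer forms of the interferon-stimulated and MEF2 motifs, which the windows of the factors did not hold either. Immediate early genes, also listed as markers, summed to between 8366 and 14442 CPM. Intervals and counting errors cover counting or the spread between these mice only.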

Additional observations from a re-analysis of the deposited data

Results flagged for a closer look

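In 8 of 118 groups of 4 mice, 1 mouse lay apart from the other 3 by more of the range than Dixon's 95% critical value allows, where chance gives about 1 in 20. None was one of the 8 factors. The gap took 0.93 of the range for *Irf4* in control (mouse 1874 at 29.2 CPM, the others from 63.4 to 67.2), 0.93 for *Elk4* in control (mouse 1874 at 42.4, the others from 32.8 to 33.4) and 0.83 for *Csf1* in control (mouse 1874 at 139, the others from 310.1 to 364). It took 0.84 for *Tal1* in control (mouse 1934 at 45.4, the others from 82.0 to 91.8) and 0.84 for *Fcgr1* in control (mouse 1934 at 141, the others from 218 to 237). It took 0.88 for *Ddit3* in control (mouse 1872 at 80.3, the others from 67.3 to 68.7), 0.88 for *Csf2ra* in CSF1 OE (mouse 1931 at 58.1, the others from 34.5 to 36.7) and 0.87 for *Runx1t1* in CSF1 OE (mouse 2019 at 0.354, the others from 0.903 to 1.03).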

How the results depend on the processing

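None of the 8 factors was called under any of the 17 alternatives, and *Maf*, *Mef2a* and *Spi1* kept their direction in all 16 that refit the data. The median log2 fold change of the 8 ran from -0.11 to 0.23. The number of all genes called, 59, was 427 with DESeq2, 19 with upper-quartile factors, 105 with limma, 1274 with the term for animal numbers, 429 with the term for microglia markers, 166 without both end libraries, and from 3 to 164 with a mouse left out (3 without control 1872 or 1874, 4 without CSF1 OE 1931, 8 without CSF1 OE 1936, 10 without control 1934, 18 without CSF1 OE 1932, 164 without control 1827). Of the 106 related genes tested 0 were called in the fit reported, 6 with DESeq2, where 3.31% of all genes were called, and 1 with limma. The term for animal numbers gave 14, where 9.50% of all genes were called, and that for microglia markers 9, where 3.20% were. The number was 2 without both end libraries, and from 0 to 2 with a mouse left out. At an unadjusted p under 0.05, 13 were higher and 10 lower, beside 10.1% and 6.44% of all genes.

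Factors near 0 changed sign. *Cebpa* was at 0.000 with DESeq2, 0.001 with no filter, 0.033 with limma, 0.334 with the term for animal numbers, 0.041 with that for microglia markers and from -0.163 to 0.141 with a mouse left out. *Runx1* was at 0.145 with the term for animal numbers and from -0.112 to 0.079 with a mouse left out. Without both end libraries *Irf8* was at -0.096, *Cebpb* at -0.065 and *Mef2c* at -0.118, and with a mouse left out they ran from -0.045 to 0.179, from -0.036 to 0.184 and from -0.070 to 0.095. The cause was not tested. No paired analysis was possible because the mice carry animal numbers that the genotypes do not share.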

Other observations

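*Lysmd4*, which lies on the strand opposite to *Mef2a* and shares 302 bases of exon with it, had 7.73 to 9.15 CPM in control and 4.98 to 6.39 CPM in CSF1 OE mice, from 66 to 139 reads per library. Its genotypes did not overlap, as in 3.45% of all genes in this direction, while *Mef2a* was higher in CSF1 OE. The kit does not record strand, so reads of the shared bases could not be told apart by strand.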
